A study of Homo sapiens with 8 samples.

Results

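The 8 genes examined here, TCP1, CCT2, CCT3, CCT4, CCT5, CCT6A, CCT7 and CCT8, encode the subunits of the cytosolic chaperonin CCT, also called TRiC. They were taken by gene name from a table of 60282 genes, and all 8 were among the 14073 genes that passed the filter on low expression. The family was picked with the difference between TP-472-treated and vehicle-treated cells already known, and CCT2 was also chosen by the study as a hub gene on these libraries, so the differences of the subunits are given below as a description and without a test of their own. SK-UT-1 is an established uterine leiomyosarcoma (uLMS) cell line. It was treated either with 5 µM TP-472, which inhibits the bromodomain proteins BRD9 and BRD7, for 48 h or with the vehicle DMSO, in 4 replicates each. All libraries come from this single line. The study states for its experiments in general that biological replicates were used, but the sample descriptions do not say whether these libraries came from separate cultures, so the p-values measure the spread between these samples, part of which may be technical.

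CCT is a cylinder of stacked rings in which each subunit has a fixed place, and it uses ATP to enclose and fold newly made proteins. Actin and tubulin depend on it, as do proteins built from WD40 repeats, among them regulators of the cell cycle and components of growth signaling. Prefoldin hands unfolded chains over to CCT, phosducin-like proteins act with it as co-chaperones, and tubulin cofactors take over its tubulin products. Because a complete ring needs all of its subunits, the subunits are commonly described as being expressed together.

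The 8 genes are spread over 7 chromosomes (positions on GRCh38, GENCODE release 29). TCP1 (ENSG00000120438.12) lies on chromosome 6 from 159778498 to 159789749, CCT2 (ENSG00000166226.13) on chromosome 12 from 69585334 to 69601570, and CCT3 (ENSG00000163468.15) on chromosome 1 from 156308968 to 156367873. CCT4 (ENSG00000115484.15) and CCT7 (ENSG00000135624.16) are both on chromosome 2, from 61868089 to 61888804 and from 73233420 to 73253021. CCT5 (ENSG00000150753.12) lies on chromosome 5 from 10249921 to 10266412, CCT6A (ENSG00000146731.11) on chromosome 7 from 56051630 to 56063989, and CCT8 (ENSG00000156261.13) on chromosome 21 from 29055805 to 29073797.

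Since all 8 genes were higher in the TP-472-treated libraries, the sequences just before their start sites were compared. RefSeq (GRCh38.p14) gave a promoter window, from 250 bases before to 50 after the start site, for 7 of the 8 genes, and CCT6A had no entry. The 250 bases before the start site are printed for TCP1 and CCT2, the subunits with the largest differences between the groups, and for CCT3, which had a small one. Each reads 5′ to 3′ on the strand of its gene, at chr6:159789603-159789852 (minus strand), chr12:69585639-69585888 (plus strand) and chr1:156338293-156338542 (minus strand). The start sites of RefSeq lie inside the longer gene spans of GENCODE given above, so these windows overlap those spans in part or in full. Capitals mark matches on either strand to the motifs listed after the sequences.
TCP1: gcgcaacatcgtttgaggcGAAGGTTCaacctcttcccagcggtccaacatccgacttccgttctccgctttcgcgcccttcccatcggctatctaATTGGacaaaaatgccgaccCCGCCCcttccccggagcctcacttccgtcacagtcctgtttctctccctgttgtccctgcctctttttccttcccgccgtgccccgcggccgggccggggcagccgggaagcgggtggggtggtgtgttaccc
CCT2: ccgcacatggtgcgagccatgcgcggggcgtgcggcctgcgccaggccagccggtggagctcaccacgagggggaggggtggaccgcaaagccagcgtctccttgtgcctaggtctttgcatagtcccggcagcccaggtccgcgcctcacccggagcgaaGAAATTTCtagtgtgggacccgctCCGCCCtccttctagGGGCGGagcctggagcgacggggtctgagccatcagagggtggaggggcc
CCT3: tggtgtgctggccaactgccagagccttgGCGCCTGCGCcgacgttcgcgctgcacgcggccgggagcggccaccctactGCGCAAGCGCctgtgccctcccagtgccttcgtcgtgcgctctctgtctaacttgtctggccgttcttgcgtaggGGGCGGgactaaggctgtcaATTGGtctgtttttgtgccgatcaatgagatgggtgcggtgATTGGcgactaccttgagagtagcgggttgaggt

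The letters GAANNTTC, a core of the heat shock element bound by heat shock factors, were found in 2 of the 7 windows, those of TCP1 and CCT2, against 6.77% of the 35116 promoters in the table. The other phase of this element, TTCNNGAA, which can overlap the first, was in none of the 7 windows and in 7.74% of all promoters. GC-boxes (GGGCGG) were in the windows of TCP1, CCT2, CCT3, CCT7 and CCT8, 5 of 7, against 45.0% of all promoters. CCAAT boxes (CCAAT) were in 3 windows, those of TCP1, CCT3 and CCT8 (34.6% of all promoters), the motif of NRF1 in those of CCT3 and CCT5 (8.32%), and the CRE core (TGACGT) in that of CCT4 (7.98%). E-boxes (CACGTG), the ETS core (CCGGAAG) and the TATA box (TATAAA) were in none of the 7, and in 7.26%, 10.3% and 11.5% of all promoters. No single motif was common to the windows. The GC content of the 7 windows was 59.3% to 70.0%, and the median over all promoters was 58.7%.

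The salmon counts are estimated reads per gene, and the library totals ran from 32574672 to 38545464. Levels are given in CPM, that is, counts relative to the library total after scaling by edgeR's TMM method for library size and composition. The subunits were among the most abundant transcripts of the cells. Their mean CPM exceeded that of 97.5% of the genes tested for CCT3, the lowest of them, and of 99.3% for CCT5, the highest, and the smallest single count was 4443, for CCT8 in vehicle replicate 3. Counting error was therefore small beside the spread between libraries.

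Vehicle replicate 3 stood apart from the other libraries, and fold changes are given with and without it. Its median Spearman correlation with the other vehicle libraries, over the genes tested, was 0.914, against 0.988 to 0.989 for the other 3. Its total count was the lowest of the 8, at 32574672. Genes with a count numbered 23325 to 23939 in vehicle and 25363 to 26211 in TP-472 libraries. Mitochondrially encoded transcripts took 0.199% to 0.282% of counts in the TP-472 libraries and 0.285% to 0.405% in vehicle replicates 1, 2 and 4. Vehicle replicate 3 had the highest share, at 0.424%. Over the 13970 tested genes with a known GC content, its deviation from the mean of the libraries correlated with GC content at r = 0.659, and those of the other libraries did so at −0.388 to −0.066, a description across genes, which are not independent. The part of vehicle replicate 3 in the results was tested by leaving it out, by removing the GC trend and by limma-voom quality weights. In that weighted fit its weight was 0.0306, against 0.352 to 4.36 for the other libraries. The part of the mitochondrial share and of the number of genes with a count was not tested.

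Values of single libraries are given throughout in the order of replicates 1 to 4. The chaperonin transcripts as a whole were more abundant in TP-472-treated cells. The summed CPM of the 8 subunits was 2827, 3479, 1941 and 3450 in the 4 vehicle libraries and 4393, 4519, 4612 and 4142 in the 4 TP-472 libraries. The lowest TP-472 library exceeded the highest vehicle library, and vehicle replicate 3 had the lowest sum. The mean was 2924 ± 721 CPM in vehicle and 4416 ± 204 CPM with TP-472 (SD, n = 4 each), a ratio of 1.51, and without vehicle replicate 3 the vehicle mean was 3252 ± 368 CPM (n = 3) and the ratio 1.36. These 8 genes took 0.206% to 0.337% of all counts in a vehicle library and 0.426% to 0.444% in a TP-472 library. Being a measurement of bulk RNA, this cannot tell more transcript per cell apart from a change in which cells were present.

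All 8 subunits had a higher level in each TP-472 library than in any vehicle library, and 23.8% of all genes tested showed such a separation in this direction. Without vehicle replicate 3 the separation also held for all 8, against 29.8% of genes. A gene was called when its change exceeded 1.5-fold and its Benjamini-Hochberg p, from the quasi-likelihood test of edgeR over all genes, was under 0.05. By this rule 4 of the 8 subunits, TCP1, CCT2, CCT5 and CCT6A, passed with all libraries, against 12.0% of genes called higher. Without vehicle replicate 3 only CCT2 did, against 12.0% of genes. Nothing is read from these counts, since the same contrast chose the family. The median log2 fold change of the 8 was 0.61 with all libraries and 0.43 without vehicle replicate 3, and that of all genes tested was −0.026 and −2.14e-05.

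**Figure D1:**
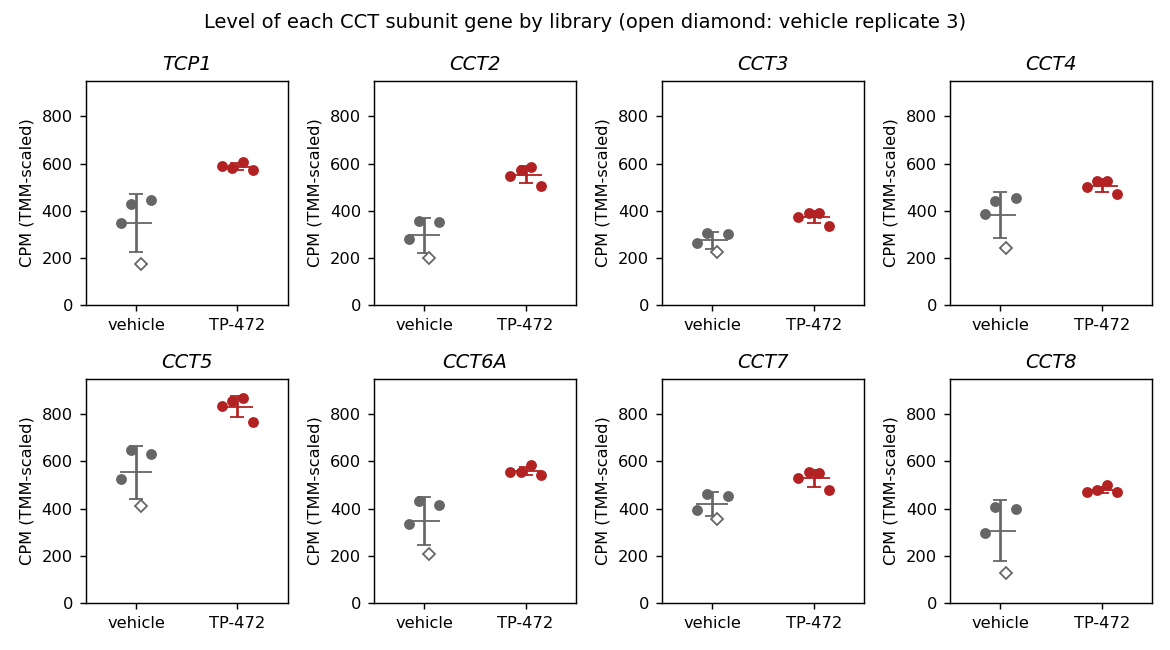
Level of each CCT subunit gene in every library, in TMM-scaled CPM (linear axis from 0). Points are libraries, the short horizontal bar is the mean of 4 and the error bar its SD, and the open diamond is vehicle replicate 3. In each panel the 4 TP-472 points lie above the 4 vehicle points, and the diamond is the lowest.

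CCT2, which encodes the beta subunit, differed most. Its level was 279, 355, 198 and 351 CPM in the 4 vehicle libraries and 546, 573, 586 and 506 CPM in the 4 TP-472 libraries. The lowest TP-472 library stood well clear of the highest vehicle library. The means were 296 ± 73.7 and 552 ± 35.5 CPM (SD, n = 4 each), and the log2 fold change was 0.90 (standard error, SE, 0.183), or 1.87-fold. Without vehicle replicate 3 it was 0.75 (SE 0.0983), or 1.68-fold, and CCT2 was the one subunit that stayed past the rule in each of the alternative analyses.

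TCP1, the gene of the alpha subunit and the founding member of the family, came next. It was at 347, 427, 173 and 444 CPM in the 4 vehicle libraries and at 589, 582, 605 and 574 CPM in the 4 TP-472 libraries. The TP-472 libraries lay close together, with a coefficient of variation of 2.25%, while vehicle replicate 3 lay far below its group. The log2 fold change of 0.76 (SE 0.256) became 0.53 (SE 0.0893), or 1.45-fold, without that library.

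CCT6A, the gene of the zeta subunit, was at 336, 431, 207 and 416 CPM in the 4 vehicle libraries and at 554, 556, 586 and 542 CPM in the 4 TP-472 libraries. Its log2 fold change was 0.69 (SE 0.210), and 0.50 (SE 0.0909) without vehicle replicate 3. CCT5, the gene of the epsilon subunit, had the highest CPM of the family. It was at 525, 648, 409 and 633 CPM in the 4 vehicle libraries and at 834, 857, 867 and 767 CPM in the 4 TP-472 libraries. A log2 fold change of 0.59 (SE 0.156), or 1.502-fold, placed CCT5 at the edge of the limit, and without vehicle replicate 3 it was 0.47 (SE 0.0907).

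CCT8, the gene of the theta subunit, showed the widest spread among vehicle libraries. Its levels were 295, 406, 129 and 396 CPM in the 4 vehicle libraries and 470, 477, 498 and 468 CPM in the 4 TP-472 libraries. The level in vehicle replicate 3 was 0.352 times the mean of the other vehicle libraries, the lowest such ratio in the family. CCT8 had a log2 fold change of 0.64 (SE 0.304), and 0.39 (SE 0.107) without that library, so the estimate was 1.56-fold with it and 1.31-fold without it.

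CCT3, CCT4 and CCT7, the genes of the gamma, delta and eta subunits, differed least. CCT3 was at 263, 308, 226 and 300 CPM in the 4 vehicle libraries and at 373, 389, 392 and 335 CPM in the 4 TP-472 libraries. CCT4 was at 386, 442, 243 and 455 CPM and at 499.5, 528, 527 and 472 CPM, in the same order. CCT7 was at 396, 462, 356 and 455 CPM and at 529, 556, 552 and 478 CPM. For CCT4 and CCT7 the highest vehicle library and the lowest TP-472 library were close to each other. Their log2 fold changes were 0.44 (SE 0.125) for CCT3, 0.41 (SE 0.188) for CCT4 and 0.34 (SE 0.1203) for CCT7, and 0.36 (SE 0.0824), 0.25 (SE 0.0786) and 0.27 (SE 0.0832) without vehicle replicate 3.

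**Figure D2:**
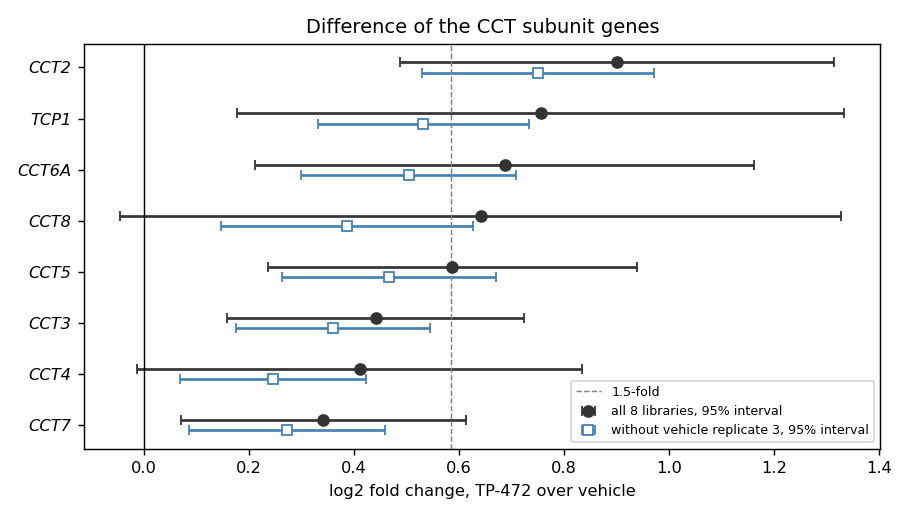
Log2 fold change of each CCT subunit gene, TP-472 over vehicle, with all 8 libraries (filled circles) and without vehicle replicate 3 (open squares); error bars are 95% intervals of the edgeR model, and the dashed line marks 1.5-fold. The estimates run from 0.34 for CCT7 to 0.90 for CCT2 with all libraries and from 0.25 for CCT4 to 0.75 for CCT2 without vehicle replicate 3, where the intervals are narrower.

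How far vehicle replicate 3 fell below the other vehicle libraries differed between the subunits. Its level was 0.352 times their mean for CCT8, 0.427 for TCP1, 0.523 for CCT6A, 0.567 for CCT4, 0.604 for CCT2, 0.679 for CCT5, 0.780 for CCT3 and 0.813 for CCT7. The GC content of the longest annotated transcript was lowest for CCT8, at 43.1%, and highest for CCT3 and CCT7, at 51.2% and 51.3%, with a median of 48.2% over the genes tested. With the GC trend of each library removed, which was added once the data had been seen, log2 fold changes ran from 0.33 for CCT4 to 0.83 for CCT2, with a median of 0.53. Vehicle replicate 3 was the lowest of the 8 libraries for all 8 subunits and for 36.5% of all genes tested.

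Across the libraries the subunits moved together. Over all 8 libraries the Pearson correlation of log2 CPM had a median of 0.972 over the 28 pairs of subunits and ran from 0.894 to 0.996, and without vehicle replicate 3 the median was 0.970 (7 libraries). Within the 4 TP-472 libraries the median was 0.819. These values are a description: the points share the difference between the groups, the libraries' depth and, wherever all 8 are used, 1 library that stood apart. The genes whose pattern was most like the mean of the 8 subunits, out of 14065 others, were EIF2A (r = 0.999 over 8 libraries), IFT57, CACYBP, CNBP and SRSF3, each with r of at least 0.9988, and at least 0.996 over the 7 libraries without vehicle replicate 3. Their log2 fold changes were 0.50, 0.58, 0.75, 0.66 and 0.65, and 0.36, 0.42, 0.54, 0.48 and 0.47 without that library. With the group means subtracted, so that only the spread within groups was left, the most alike were RPS13, PSMA1, ARMT1, EMC4 and HSD17B4 (r of at least 0.999), which differed between the groups by 0.61, 0.38, 0.32, 0.49 and −0.16 on the log2 scale. Vehicle replicate 3 was the library farthest from its group mean in this comparison, and without it the r of these 5 genes was 0.994 to 0.999 over 7 libraries and their log2 fold changes were 0.35, 0.21, 0.096, 0.33 and −0.36. These values without it were added once the data had been seen, and the genes were not chosen again.

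Levels of different genes were compared per length, as CPM per kb of annotated exons. In vehicle libraries CCT4 had the highest level, 134.8 ± 34.3, followed by CCT7 with 116 ± 14.1, CCT5 with 94.8 ± 19.0, CCT8 with 91.7 ± 38.5, CCT6A with 89.1 ± 26.3, TCP1 with 70.6 ± 25.1, CCT2 with 68.5 ± 17.1 and CCT3 with 68.3 ± 9.33 CPM per kb (SD, n = 4). With all 4 vehicle libraries, the step from CCT7 to CCT5 exceeded the SDs of both genes. The other neighbours in this order differed by less than the larger of their SDs. The vehicle order rested in part on vehicle replicate 3. In vehicle replicates 1, 2 and 4, CCT8 made up on average 13.3% of the summed CPM per kb, above CCT5 with 12.6%. The steps were not compared without that library. In TP-472 libraries the order was CCT4 (179 ± 9.37), CCT7 (147 ± 9.97), CCT6A (143 ± 4.77), CCT8 (143 ± 4.16), CCT5 (142 ± 7.71), CCT2 (128 ± 8.21), TCP1 (119 ± 2.68) and CCT3 (92.7 ± 6.48 CPM per kb), and the steps from CCT4 to CCT7, from CCT5 to CCT2, from CCT2 to TCP1 and from TCP1 to CCT3 exceeded the SDs of both genes. CCT7, CCT6A, CCT8 and CCT5 did not differ by more than their spread. The order depends on the length used. Per kb of the longest annotated transcript, CCT7 was highest in both groups (205 ± 24.9 and 260.3 ± 17.6 CPM per kb) and CCT3 lowest (128 ± 17.4 and 173 ± 12.1). On that length CCT2, at 252 ± 16.2 with TP-472, did not differ from CCT7 by more than their spread. Neither did CCT6A, at 128 ± 37.8 in vehicle, from CCT3.

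Because the differences between the groups were unequal, the make-up of the chaperonin transcripts shifted. CCT2 made up 9.08%, 9.41%, 9.49% and 9.37% of the summed CPM per kb of the 8 genes in the 4 vehicle libraries and 11.6%, 11.8%, 11.9% and 11.4% in the 4 TP-472 libraries. The share of CCT2 was thus higher in every TP-472 library, and here vehicle replicate 3 did not stand apart. The shares of TCP1 and CCT6A were also higher in every TP-472 library, by less: TCP1 made up 7.27% to 10.4% in vehicle and 10.5% to 11.3% in TP-472 libraries, and CCT6A 10.9% to 12.65% and 12.7% to 13.5%. CCT4 went the other way, with 19.2%, 17.9%, 17.7% and 18.5% in the vehicle libraries and 16.2%, 16.6%, 16.3% and 16.3% in those with TP-472. CCT7 made up 15.5%, 14.7%, 20.5% and 14.6% in vehicle and 13.6%, 13.8%, 13.4% and 12.95% in those with TP-472, again without overlap. For CCT5 and CCT8, the shares in vehicle replicates 1, 2 and 4 averaged 12.6% and 13.3%, and those in TP-472 replicates 13.0% and 13.1%. Vehicle replicate 3 lay on the other side of the TP-472 libraries, at 14.5% for CCT5 and 7.96% for CCT8. CCT3 made up 9.18%, 8.77%, 11.65% and 8.62% in vehicle and 8.53%, 8.645%, 8.53% and 8.13% in TP-472 libraries, with overlap. Per kb of the longest transcript, the share of CCT2 was 11.1% to 11.5% in vehicle and 13.7% to 14.3% in TP-472 libraries, and that of TCP1 was 8.80% to 12.65% and 12.70% to 13.7%. For CCT6A the groups overlapped on that length, with 11.2% in vehicle replicate 2 and 11.15% in TP-472 replicate 2.

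**Figure D3:**
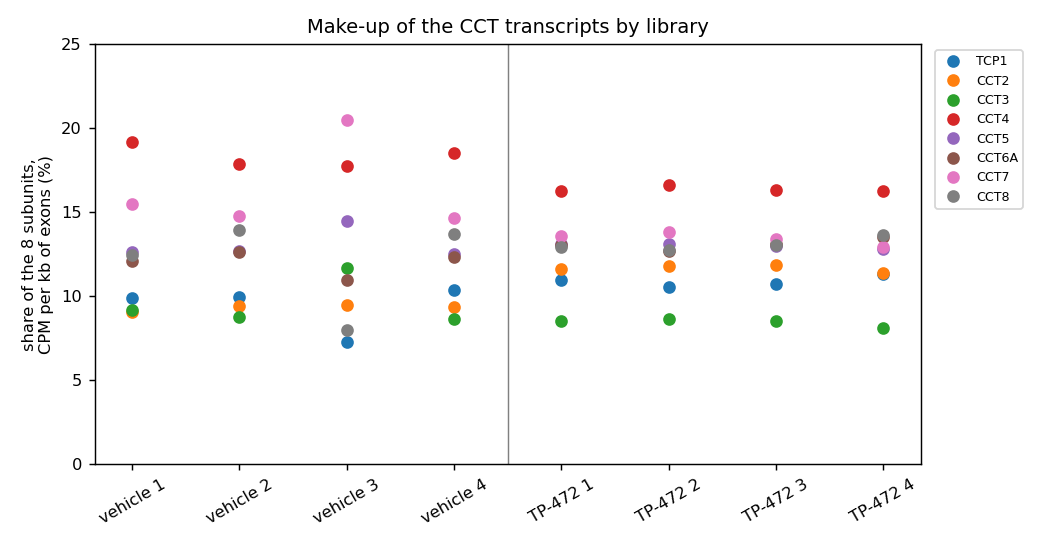
Share of each subunit gene in the summed level of the 8 genes (CPM per kb of annotated exons, %) in each of the 8 libraries, colored by gene. CCT2 lies at 9.08% to 9.49% in vehicle and 11.4% to 11.9% in TP-472 libraries, and vehicle replicate 3 differs from its group most for CCT7, CCT8, TCP1 and CCT3.

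Reads of the subunits may be shared with related sequences. Of the 16 other genes in the table named as CCT or TCP1 paralogs or pseudogenes, 3 passed the filter. CCT6B (ENSG00000132141.14), a paralog of CCT6A known from testis, was at 2.05 ± 0.568 CPM in vehicle and 1.77 ± 0.149 CPM in TP-472-treated cells (log2 fold change −0.22, adjusted p = 0.477 from edgeR). The CCT6A-derived pseudogene CCT6P1 (ENSG00000228409.6) was higher, with 3.68 ± 0.703 and 6.87 ± 0.569 CPM (log2 fold change 0.90, adjusted p = 0.005 from edgeR). CCT6P3 (ENSG00000234585.6) was at 6.45 ± 1.59 and 9.28 ± 0.769 CPM (log2 fold change 0.53, adjusted p = 0.0631 from edgeR). Leaving out vehicle replicate 3 gave log2 fold changes of −0.39 for CCT6B, 0.77 for CCT6P1 and 0.37 for CCT6P3 (adjusted p = 0.0636, 3.33e-04 and 0.0140). Salmon may divide reads between these copies and CCT6A, so the values of both pseudogenes are uncertain. Their levels were small beside that of CCT6A, at 348 ± 103 and 559 ± 18.6 CPM.

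Genes that begin next to a subunit gene on the other strand gave a comparison that did not enter the choice of the family. In GENCODE release 29, 6 genes start within 1000 bases of the start of a CCT gene on the opposite strand, and 5 of them were tested. The sixth, MIR3913-1 beside CCT2, did not pass the filter. The start used here is the outer end of the GENCODE gene span. For CCT3 that end, at 156367873, lies far from the RefSeq window printed above, which ends at 156338542. Neighbours of the RefSeq start of CCT3 were not searched for. None of the 5 was called by edgeR, against 26.9% of all genes in both directions, 1 had an unadjusted p-value under 0.05, and DESeq2 and limma-voom also called 0. MRPL18, a protein of the mitochondrial ribosome whose gene starts 63 bases from TCP1, was that 1 gene. It was at 52.8, 67.5, 47.6 and 66.4 CPM in the 4 vehicle libraries and at 75.4, 84.4, 81.4 and 70.4 CPM in the 4 TP-472 libraries. No vehicle library reached the TP-472 libraries, but the difference on the log2 scale was 0.41 (SE 0.137, adjusted p = 0.0434, edgeR), less than 1.5-fold, and 0.32 without vehicle replicate 3. Its adjusted p ran from 0.00135 to 0.12 over the alternatives and was above 0.05 with no filter (0.11), with the replicate number as a block (0.0868), without vehicle replicate 1 (0.105) and without any 1 of the TP-472 libraries (0.0584 to 0.12).

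The other 4 neighbours had adjusted p-values of 0.491 to 0.655, and their groups overlapped. COMMD1, a regulator of copper and NF-kB, overlaps the first bases of CCT4 and was at 16.1 ± 1.94 CPM in vehicle and 17.2 ± 2.03 CPM in TP-472-treated cells (log2 fold change 0.099, 95% interval −0.21 to 0.41). PSPH, an enzyme of serine synthesis that starts 26 bases from CCT6A, was at 34.6 ± 3.75 and 37.3 ± 3.57 CPM (0.11, −0.16 to 0.38). ATPSCKMT, 24 bases from CCT5, was at 22.1 ± 6.40 and 24.9 ± 1.46 CPM (0.18, −0.31 to 0.66). PRADC1, 182 bases from CCT7, was at 13.7 ± 0.669 and 14.6 ± 2.82 CPM (0.090, −0.25 to 0.43). The subunits beside these genes had log2 fold changes of 0.41, 0.69, 0.59 and 0.34, and the difference within a pair was not tested. Without vehicle replicate 3 the log2 fold changes were 0.036 for COMMD1, 0.059 for PSPH, −0.017 for ATPSCKMT and 0.11 for PRADC1. CCT4 and COMMD1 overlap only from 61888724 to 61888804 on chromosome 2. Reads that lie within such shared bases can be told apart only if strand was used in counting, which the sources used here do not state.

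**Figure D4:**
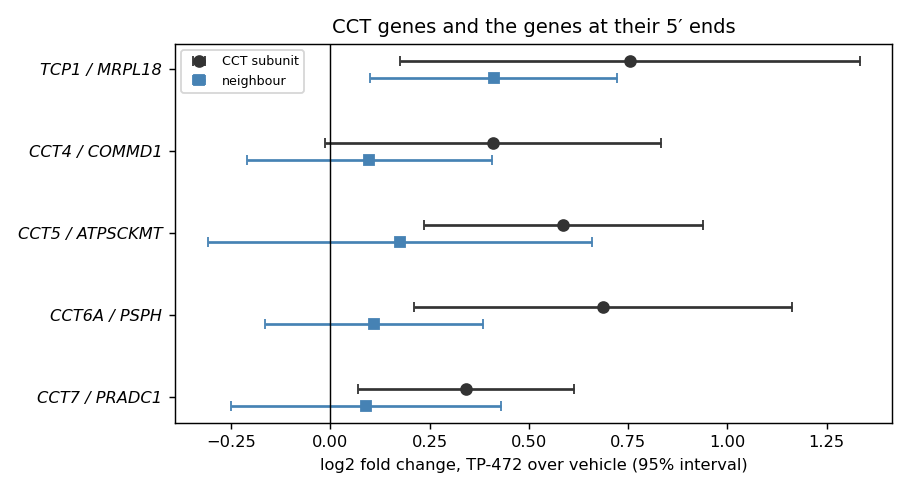
Log2 fold change, TP-472 over vehicle, of 5 CCT subunit genes (circles) and of the gene that starts next to each on the opposite strand (squares), with 95% intervals of the edgeR model over 8 libraries. Each square lies to the left of its circle, and only the interval of MRPL18 does not reach 0 among the squares.

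The partners of the chaperonin, the proteins it folds, other chaperonins and the heat shock factors were examined as lists, and the most abundant gene of a list is the one with the highest mean CPM. Of the 58 genes on these lists, 53 were tested, and 4 were called higher and 3 lower with TP-472, against 12.0% and 14.9% of all genes. Their median log2 fold change was 0.098, and −0.026 over all genes. Without vehicle replicate 3, 6 were called higher and 4 lower, against 12.0% and 13.4% of genes, and the median was 0.043.

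Among the partners, all 6 prefoldin subunits had a positive log2 fold change (median 0.55). By edgeR 2 of the 6 had an adjusted p under 0.05, and 1 was called, against 26.9% of all genes in both directions. The called gene was PFDN2. It was at 23.2, 27.9, 30.3 and 27.6 CPM in the 4 vehicle libraries and at 40.3, 45.7, 47.1 and 42.4 CPM in the 4 TP-472 libraries. The TP-472 libraries were all higher, and vehicle replicate 3 was at the upper end of its group. It was higher with TP-472 by 0.68 on the log2 scale (SE 0.115, adjusted p = 0.00262, edgeR), and by 0.74 without vehicle replicate 3. PFDN5, the most abundant of the 6, did not differ beyond the spread, with 132.8 ± 18.6 and 139 ± 21.3 CPM (log2 fold change 0.062, adjusted p = 0.761, and 0.070 without vehicle replicate 3). Without vehicle replicate 3 the prefoldin median was 0.33. Of the phosducin-like co-chaperones, 3 of 4 were tested and none was called by edgeR, DESeq2 or limma-voom (1 at an unadjusted p-value under 0.05, median 0.26, and 0.13 without vehicle replicate 3). That 1 gene, PDCL3, also had an adjusted p of 0.0273 from edgeR, but its log2 fold change of 0.44 was less than 1.5-fold. The most abundant, TXNDC9, was at 45.0 ± 9.36 and 53.9 ± 1.19 CPM (log2 fold change 0.26, and 0.13 without vehicle replicate 3). None of the 5 tubulin cofactors was called by these tools (2 at an unadjusted p-value under 0.05, median 0.31, and 0.24 without vehicle replicate 3). TBCD, with the highest mean CPM over all libraries, was at 115 ± 36.9 and 87.1 ± 2.64 CPM (log2 fold change −0.41, and −0.16 without vehicle replicate 3). That rank rested on vehicle replicate 3, at 169 CPM, and with TP-472 TBCB was higher, at 98.7 ± 8.99 CPM. TBCC, a cofactor of the last step of tubulin assembly, was past the limits without vehicle replicate 3 (log2 fold change 0.59) but not with all libraries (0.57). With all libraries TBCC had an adjusted p of 0.00574 from edgeR and missed only the limit of 1.5-fold.

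The genes of proteins that depend on CCT are given list by list, beside the 12.0% of all genes called higher and 14.9% called lower. Of 12 tubulin genes, 2 were called higher and 1 lower (median log2 fold change 0.12, and 0.19 without vehicle replicate 3). The alpha-tubulin gene TUBA4A rose from a low level, with 0.693, 0.747, 1.27 and 0.927 CPM in the 4 vehicle libraries and 6.37, 7.27, 6.63 and 6.31 CPM in the 4 TP-472 libraries. On the log2 scale the rise was 2.86 (SE 0.214), and 3.07 without vehicle replicate 3. TUBA4A passed the filter of 1 CPM only through its level with TP-472, so its call is a description and is not read as a test. The beta-tubulin gene TUBB2B rose from 10.6 ± 1.45 to 21.6 ± 1.94 CPM (log2 fold change 1.03, adjusted p = 9.79e-04, and 1.09 without vehicle replicate 3). TUBB4A, also a beta-tubulin, was lower, with 5.04, 1.78, 16.8 and 1.995 CPM in the 4 vehicle libraries and 1.76, 1.35, 1.14 and 1.59 CPM in the 4 TP-472 libraries. Its log2 fold change of −2.13 (adjusted p = 0.0384 from edgeR) rested largely on vehicle replicate 3, without which it was −1.01 (adjusted p = 0.0350). With any 1 of the TP-472 libraries left out, its adjusted p from edgeR was 0.0774 to 0.0991, and without vehicle replicate 1 it was 0.0643. TUBB4A was also above 0.05 with the replicate number as a block (0.111) and with limma-voom quality weights (0.0531). The tubulin with the most reads, TUBA1B, was at 2037 ± 330 and 2017 ± 177 CPM (log2 fold change −0.014, adjusted p = 0.947, and −0.060 without vehicle replicate 3). The beta-tubulin gene TUBB2A was called higher without vehicle replicate 3 (log2 fold change 0.67, adjusted p = 1.45e-04) but not with all libraries (0.39, adjusted p = 0.180).

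Of the 6 actin genes 3 were tested and none was called by edgeR or DESeq2 (1 at an unadjusted p-value under 0.05, and 1 called by limma-voom; median −0.52, and −0.058 without vehicle replicate 3). ACTB, which had the highest mean CPM of the list, was at 3413, 2388, 6820 and 2409 CPM in the 4 vehicle libraries and at 2684, 2544, 2553 and 2736 CPM in the 4 TP-472 libraries. Vehicle replicate 3 held the highest level, and the other vehicle libraries spanned those with TP-472. ACTG1, the other actin gene of non-muscle cells, was at 2814, 2535, 3945 and 2536 CPM in vehicle and 2995, 3026, 2790 and 2806 CPM with TP-472, above ACTB in 6 of the 8 libraries, so the rank of ACTB rested on its level in vehicle replicate 3. Without that library the log2 fold change of ACTB went from −0.52 to −0.058. The gene of smooth muscle actin, ACTA2, was past the limits without vehicle replicate 3 (log2 fold change −0.59) but not with all libraries (−0.55). With all libraries ACTA2 had an adjusted p of 0.00426 from edgeR and missed only the limit of 1.5-fold.

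Of 15 genes of WD40 proteins and other substrates, 1 was called higher and 1 lower, against 12.0% and 14.9% of all genes. Their median was −0.23, and −0.11 without vehicle replicate 3. CCNE1, which encodes cyclin E1, rose from 24.1 ± 3.14 to 37.8 ± 1.81 CPM (log2 fold change 0.65, adjusted p = 0.00388 from edgeR, and 0.59 without vehicle replicate 3). FZR1, an activator of the anaphase-promoting complex, was at 51.8, 45.2, 131 and 47.3 CPM in the 4 vehicle libraries and at 31.4, 34.05, 33.6 and 28.9 CPM in the 4 TP-472 libraries. All TP-472 libraries were lower, but the size of the difference depended on vehicle replicate 3, with a log2 fold change of −1.11 with it (adjusted p = 0.0307 from edgeR) and −0.59 without it (adjusted p = 1.90e-04). With any 1 of the TP-472 libraries left out FZR1 was not called (adjusted p = 0.07 to 0.0791 from edgeR). Its change was less than 1.5-fold with limma-voom quality weights (−0.53) and with the GC trend removed (−0.55). GNB1, a G-protein beta subunit and the most abundant of the list, was at 365 ± 96.7 and 277 ± 4.97 CPM (log2 fold change −0.40, adjusted p = 0.0957). GNB1 was at 503 CPM in vehicle replicate 3, and leaving it out gave −0.20 (adjusted p = 0.0462).

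Other chaperonins and the factors that activate chaperone genes were examined last. HSPD1 and HSPE1 encode the mitochondrial chaperonin and its lid. HSPD1, the most abundant gene of this list, was at 889, 1165, 519.7 and 1126 CPM in the 4 vehicle libraries and at 1361, 1377, 1449 and 1292 CPM in the 4 TP-472 libraries. Its groups did not overlap and differed by 0.57 on the log2 scale (SE 0.230, adjusted p = 0.0820, edgeR), and 0.37 without vehicle replicate 3. None of the 6 tested genes of the list was called by edgeR, DESeq2 or limma-voom (1 at an unadjusted p-value under 0.05, median 0.32, and 0.13 without vehicle replicate 3). Of the heat shock factors HSF1, HSF2 and HSF4, 1 was called, against 26.9% of all genes in both directions. HSF4 was at 2.47, 1.84, 6.37 and 2.19 CPM in the 4 vehicle libraries and at 1.24, 1.41, 1.14 and 0.978 CPM in the 4 TP-472 libraries. HSF4 thus had a log2 fold change of −1.43 (adjusted p = 0.0227 from edgeR), and −0.86 without vehicle replicate 3. It was not called without TP-472 replicate 1, 3 or 4 (adjusted p = 0.0554, 0.0631 and 0.0645 from edgeR). HSF1, the main activator of heat shock genes, was at 55.9 ± 34.03 and 33.5 ± 1.69 CPM (log2 fold change −0.74, adjusted p = 0.112), with 107 CPM in vehicle replicate 3. Without that library the log2 fold change of HSF1 was −0.22 (adjusted p = 0.0657). HSF2, the most abundant of the 3 over all libraries, was at 55.8 ± 16.5 and 50.05 ± 3.20 CPM (log2 fold change −0.16, adjusted p = 0.571). HSF2 had its lowest level in vehicle replicate 3, and leaving that library out gave −0.34 (adjusted p = 0.0152), a change of less than 1.5-fold. The median of these 3 genes was −0.74 with all libraries and −0.34 without vehicle replicate 3.

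**Figure D5:**
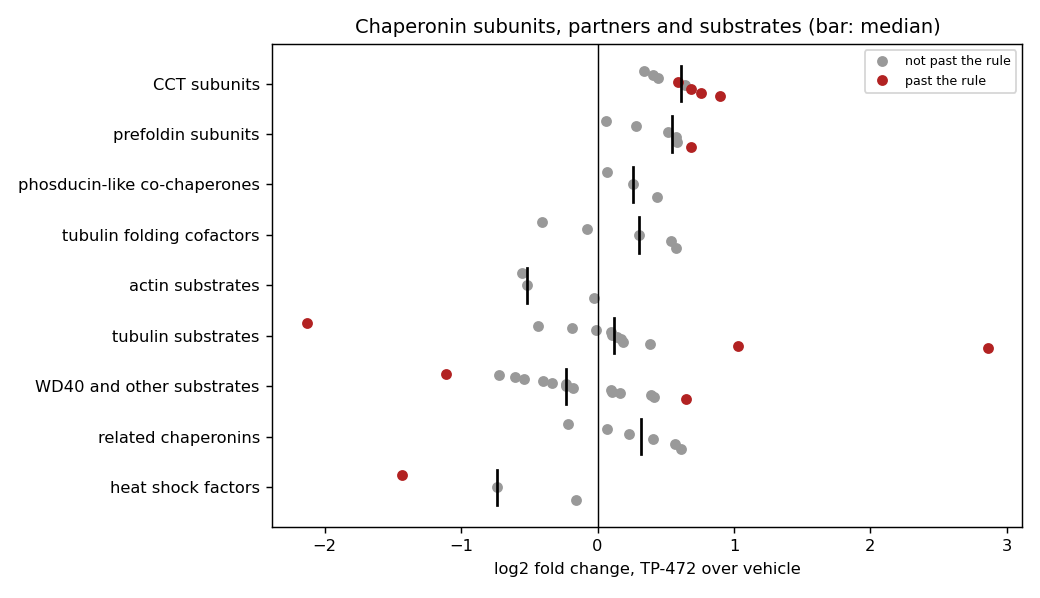
Log2 fold change, TP-472 over vehicle (8 libraries), of the tested genes of each list; every point is a gene, red points are past the limits on adjusted p-value and fold change, and the bar is the median of the list. The CCT subunits lie between 0.34 and 0.90, while the tubulin genes reach from −2.13 to 2.86.

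The identity of the cells was checked with markers. Of 8 smooth muscle markers 6 were tested. MYH11 and MYOCD, which define mature smooth muscle, were at or near 0, with means of 0.0070 and 0.042 CPM in vehicle and 0.236 and 0.0874 CPM with TP-472, and DES was at 3.25 ± 0.203 CPM. CALD1 (200 ± 15.3 CPM) and ACTA2 (160 ± 16.7 CPM) were the most abundant. The summed level of the 8 was 438, 476, 520.4 and 479 CPM in the 4 vehicle libraries and 379, 377, 373 and 370.1 CPM in the 4 TP-472 libraries. DES (log2 fold change −2.36) and TAGLN (−0.67) were called lower (−2.40 and −0.64 without vehicle replicate 3). Of all genes tested, 14.9% were called lower, and 13.4% without vehicle replicate 3. DES passed the filter of 1 CPM only through the vehicle libraries, so its call is a description and is not read as a test. Of 7 fibroblast markers 5 were tested and 4 were called lower with and without vehicle replicate 3, against 14.9% and 13.4% of all genes. These were COL1A1, COL1A2, COL3A1 and PDGFRB (log2 fold changes −2.35, −2.58, −1.62 and −2.33, and −1.46, −2.50, −1.64 and −2.03 without vehicle replicate 3). VIM, the most abundant, was at 2538 ± 673 and 1908 ± 57.3 CPM (−0.41, and −0.21 without vehicle replicate 3). DCN and LUM were at or near 0 in both groups. The summed level of the fibroblast list was 3317, 3169, 4709 and 3241 CPM in the 4 vehicle libraries and 2174, 2101, 2246 and 2120 CPM in the 4 TP-472 libraries. Of 5 epithelial markers 3 were tested, with KRT18 called higher (log2 fold change 1.08, 15.6 ± 1.47 CPM with TP-472) and KRT19 lower (−0.85), or 1.14 and −0.71 without vehicle replicate 3. Over all genes, 12.0% were called higher and 14.9% lower, and 12.0% and 13.4% without vehicle replicate 3. The summed level of the epithelial list was 17.5 to 23.1 CPM in vehicle and 20.4 to 26.8 CPM in TP-472 libraries. No immune or endothelial marker passed the filter. CD14 led the immune list (0.584 CPM in vehicle) and VWF the endothelial list (0.0926 CPM), while PTPRC, CD3E, CDH5 and KDR had no count in vehicle libraries. The summed level of the immune list was 0.471 to 0.724 CPM in vehicle and 0.880 to 1.21 CPM in TP-472 libraries. That of the endothelial list was 0.0554 to 0.144 and 0.414 to 0.581 CPM. In the TP-472 libraries, where the CCT genes were higher, smooth muscle and fibroblast markers had lower summed levels. Those of immune and endothelial markers, near or below 1 CPM, were higher. The smooth muscle markers did not all go the same way. CALD1 had a log2 fold change of −0.059 and CNN1 of 0.13. That of SMTN was −0.68 with all libraries and −0.13 without vehicle replicate 3. The part of any of these lists in the CCT difference was not tested.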

How the data were processed

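RNA from SK-UT-1 cells was sequenced in 4 vehicle and 4 TP-472 libraries, and none was left out or pooled. Per its methods, the study used strand-specific libraries of total RNA, and the reads were also mapped with STAR. The strand setting of the counting is not given in the sources used here. What the authors deposited are estimated counts: Salmon 1.4.0 (also named, with GRCh38, in the submitters' processing notes) estimated transcript abundance, and tximport summed it by gene without normalization or a filter. All 8 columns of the table were used.

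Counts were rounded, and 14073 genes above 1 CPM in 4 or more of the 8 libraries were kept. Libraries were scaled by TMM and compared in R 4.3.3 by edgeR 4.0.16 (quasi-likelihood), with Benjamini-Hochberg adjustment over all genes. Genes beyond 1.5-fold and under 0.05 in adjusted p were called, which are the cutoffs of the study. The test behind them is not given in the sources used here. The standard error is the log2 fold change divided by the root of F. Log2 CPM used a prior count of 2. Coordinates and lengths are those of GENCODE release 29 (GRCh38), joined by identifier without version. TBCE is the first of the identifiers that carry this symbol.

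The members, gene lists and tests were chosen with earlier results of these data known. Named genes are the subunits, the called genes and most abundant gene of each list, the genes at their 5′ ends, expressed copies and the most similar genes. ACTA2, ACTG1, TBCB, TBCC, PDCL3, TUBB2A, CNN1, SMTN, DCN, LUM, MYH11, MYOCD, PTPRC, CD3E, CDH5, KDR and HSF1 were named after their values were seen. Alternatives were scaling by RLE, by total counts or by the upper quartile, no filter or one at 5 CPM, DESeq2 1.42.0, limma-voom (limma 3.58.1) with sample quality weights, the replicate number as a block, and each library left out. Removal of the GC trend was added after seeing the data. Counts of any pair of libraries differed beyond sampling noise (mean chi-square of at least 12.8 a gene). The calculations were tested on simulated data. The rule called 17 of 100 genes simulated with a log2 change of 0.8 and 42 of 100 with a change of 1. It called 3 of the 13873 genes simulated without a change. A gene that was not called is therefore not shown to be unchanged. The libraries held 32574672 to 38545464 counts, and the smallest count of a subunit was 4443. Proteins of the subunits were not analysed here.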

Additional observations from a re-analysis of the deposited data

Results flagged for a closer look

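Each of 42 groups of 4 libraries, for the subunits, their sum, and the neighbours, partners and substrates followed through the alternatives, was checked for a library far from the other 3 by Dixon's test, which chance alone passes in about 5% of groups. It picked out 2, both vehicle replicate 3: FZR1, at 131 CPM, and HSF4, at 6.37 CPM, were each higher there than in the other vehicle libraries. For none of the 8 subunits did vehicle replicate 3 pass this limit, since vehicle replicate 1 lay between it and the other 2.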

How the results depend on the processing

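The log2 fold change of all 8 subunits was positive under every alternative run. Their median ran from 0.43 to 0.74 with any 1 library left out, lowest without vehicle replicate 3, and was 0.38 with limma-voom quality weights and 0.53 to 0.67 under the others. The number of subunits past the limits, 4 with all libraries, was 3 under the 3 other scalings, the stricter filter, DESeq2 and the removal of the GC trend, 2 without a filter, 1 with limma-voom quality weights and 1 with the replicate number as a block, and 1 to 4 with any 1 library left out. It was 1 without vehicle replicate 1, vehicle replicate 3 or TP-472 replicate 1, 2 or 3, and 2 without TP-472 replicate 4. CCT2 was among them each time. Genes called lower on the lists of partners, substrates, other chaperonins and heat shock factors numbered 3 with all libraries, 1 under the stricter filter, which tested fewer genes, and 0 to 4 with any 1 library left out: 0 without TP-472 replicate 1, 3 or 4 and 1 without TP-472 replicate 2. Over all genes, 1387 to 2399 were called lower with a library left out, against 2096, lowest without TP-472 replicate 3. The log2 fold change turned negative for COMMD1 (−0.015) and ATPSCKMT (−0.021) with limma-voom quality weights, for ATPSCKMT without vehicle replicate 3 (−0.017, and up to 0.27 without another library) and for PRADC1 without TP-472 replicate 2 (−0.041, and up to 0.18), and none of these was called. Where no reason is named, the cause was not tested. FZR1 and TUBB4A were not called with any 1 of the TP-472 libraries left out, nor was HSF4 without TP-472 replicate 1, 3 or 4. FZR1 was also not called with limma-voom quality weights or with the GC trend removed. TUBB4A was not called with those weights, with the block or without vehicle replicate 1. TUBB4A and HSF4 were not tested under the stricter filter, and CCNE1 was not called with limma-voom quality weights.

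Same-numbered vehicle and TP-472 libraries were treated as unpaired in the main fit. Their deviations from the group means correlated at −0.055, 0.12, −0.17 and −0.18 for replicates 1 to 4, and no library was most like its own number. No pairing was thus visible, but these values cannot show how the cultures were set up. The block gave 1500 genes called higher and 1555 lower, against 1693 and 2096. Counting error is largest for the genes near the filter of 1 CPM.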
